A study of Drosophila melanogaster with 17 samples.

Results

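The dpr, DIP, beat and side genes of Drosophila encode 4 families of cell-surface proteins with immunoglobulin domains, and 51 of them were followed here across eye discs of 3rd instar larvae. Members were the genes whose symbol starts with dpr and a digit, DIP-, beat- or side and that had a probe set annotated to that gene alone. This gave 20 dpr, 10 DIP, 13 beat and 8 side genes, out of 11982 genes with such a probe set. RefSeq lists 54 genes with these symbols, and DIP-lambda, beat-Ib and dpr21 were not analysed here. The discs were dDP mutant, de2f1 (E2f1 deleted in the posterior of the disc only) or wild type (WT). They were either untreated or dissected 4 h after 40 Gy of gamma radiation, from larvae kept at 25 °C on standard food. The 6 groups were irradiated dDP, untreated dDP, irradiated de2f1, untreated de2f1, irradiated WT and untreated WT discs, with 3 biological replicates each except irradiated WT discs, which had 2 (numbers 1 and 3). The labels name no dDP allele, no driver for the de2f1 deletion and no strain background for any group, so genotype and background cannot be told apart. Values are log2 readings made with RMA (the robust multi-array average, 1 number per probe set and array) on the Affymetrix Drosophila Genome 2.0 array, so a difference of 1 is a 2-fold difference.

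Dp is the partner with which E2F transcription factors bind DNA, and E2f1 is the fly's activating E2F, which drives genes of the cell cycle. Dpr proteins and the Dpr-interacting proteins (DIPs) bind each other across the membranes of neurons and their targets, and each neuron type shows its own combination of them. In the fly visual system these pairs act in the choice of synaptic partners and in the survival of neurons. Beat proteins, named for beaten path, are made by axons and bind Side proteins, named for sidestep, on the cells that axons follow or reach. The eye disc holds dividing cells ahead of the morphogenetic furrow and, behind it, photoreceptor neurons that send axons to the optic lobe. Discs were measured whole, so fewer cells of a type and less RNA per cell cannot be told apart.

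Most members gave low readings in eye discs. The median member read 5.30, against 7.86 for the median of all 11982 genes, and 5 members averaged above 7. Readings of different probe sets also reflect how well their probes bind, so no order of abundance is drawn from them. A floor was set at log2 4.6, below which 14.2% of all genes had every group mean. A total of 9 members, or 17.6%, did so as well, namely DIP-beta, DIP-kappa, DIP-zeta, beat-Ia, beat-Ic, beat-IIb, beat-Va, dpr11 and dpr15. dpr11, which marks a subtype of the R7 photoreceptor in later eyes, was thus at the floor in every group at this stage. Another 34 members were at or above the floor in all 6 groups, and 8 (dpr1, dpr2, dpr10, dpr20, beat-IIa, beat-Vb, side-VI and side-VIII) in some groups only. All 8 side genes exceeded it in at least 1 group, as did 18 of 20 dpr, 7 of 10 DIP and 9 of 13 beat genes.

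**Figure D1:**
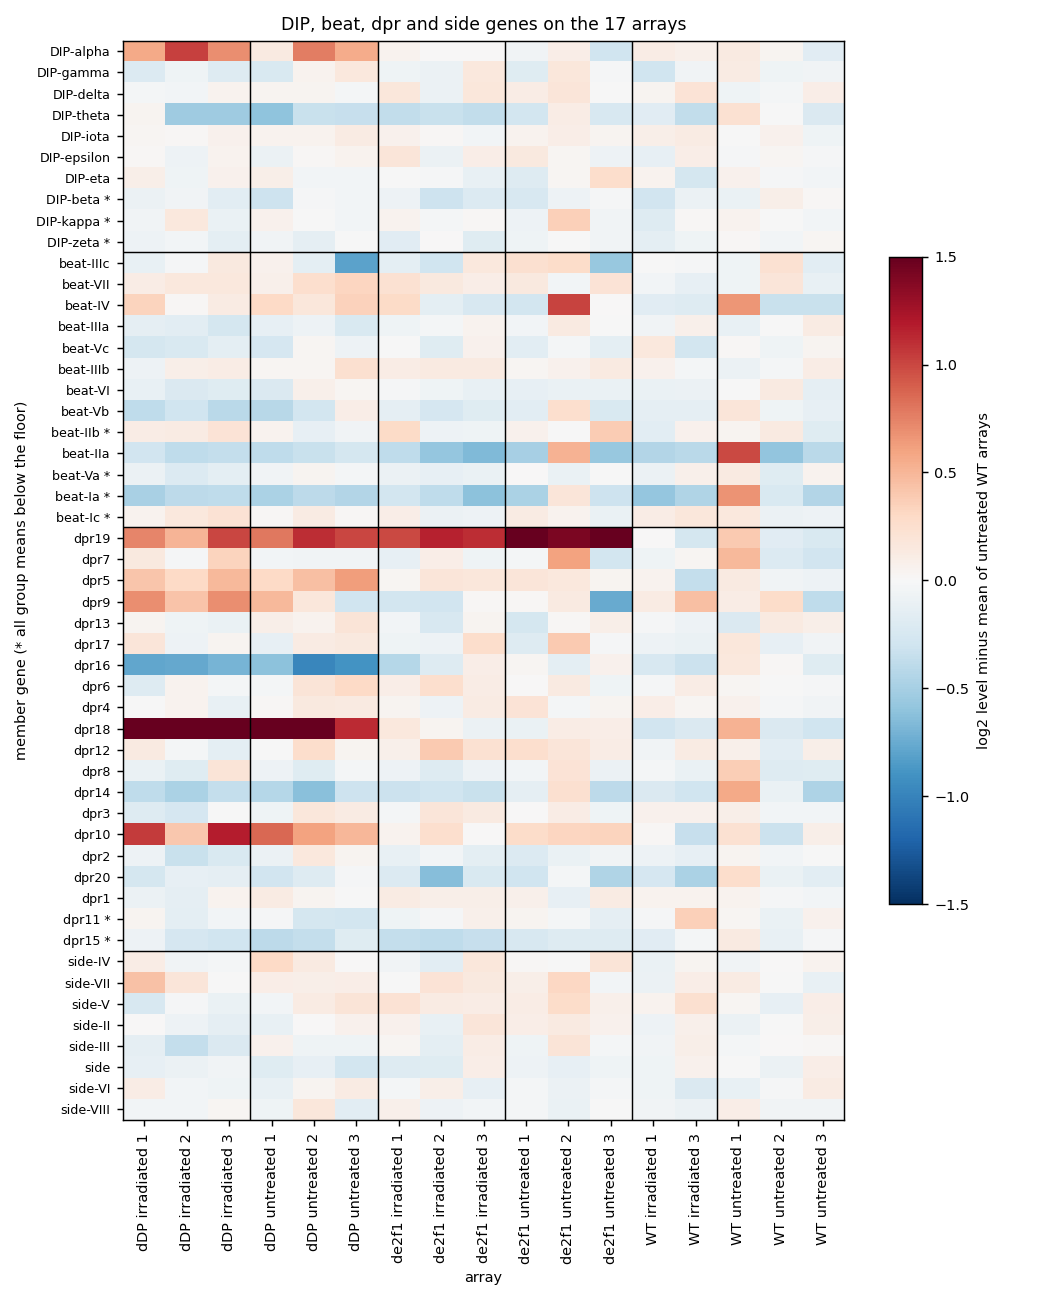
Colour gives the log2 reading of each of the 51 members (rows, by family, brightest first) on each of the 17 arrays (columns) minus that gene's mean over the 3 untreated WT arrays, with an asterisk on the 9 members at the floor. The rows of dpr18, dpr19 and dpr10 stand out as higher across the 6 dDP arrays, DIP-alpha on 5 of them (not on untreated array 1, at 6.96), and dpr19 also across the 6 de2f1 arrays. The row of dpr16 is lower across the 6 dDP arrays, and most other rows stay pale.

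The tissue labels and the dDP genotype were checked before any comparison. The 8 measured eye field genes averaged 10.43 to 10.78 per array and none was below the floor, and elav, the pan-neuronal RNA-binding protein, read 10.90 to 11.72. The 6 antenna field genes averaged 9.75 to 10.17 per array, also with none below the floor. The check thus does not separate eye from antennal tissue. Dp read 8.25 to 8.88 in irradiated and 8.06 to 8.94 in untreated dDP discs, against 10.04 to 10.50 on the 11 other arrays. E2f1 had no probe set of its own and was not analysed here, so the de2f1 label was not checked on the arrays. Some arrays stood apart in other ways. The difference between actin 3-prime and 5-prime control probe sets was 3.05 and 3.26 on untreated dDP arrays 2 and 3, against 1.69 to 2.28 elsewhere. Salivary gland genes averaged 6.45, 12.72 and 13.05 in irradiated and 5.72 to 6.04 in untreated dDP discs, 6.43 on untreated de2f1 array 1, and 10.08 to 12.85 on the others. Fat body genes averaged 13.31 on untreated dDP array 1, against 6.22 to 11.79 elsewhere. Untreated WT array 1 and untreated de2f1 array 2 had the highest readings of all arrays for 8 members.

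The first question was which members differ when Dp is lost. Compared with WT, dDP discs had higher dpr18, dpr19, dpr10, DIP-alpha and dpr5 and lower dpr16, in untreated and in irradiated discs alike. The largest difference was in dpr18, by 1.55 ± 0.23 in untreated and 2.02 ± 0.26 in irradiated discs (log2, SE). No beat and no side gene was called in either comparison on its chosen probe set, while other probe sets of side-II were called lower in both (-0.27, adjusted p = 0.00528, untreated and -0.46, adjusted p = 0.00345, irradiated). In untreated discs 7 of 51 members, 13.7%, were called (limma, Benjamini-Hochberg adjusted p under 0.05 over all 18769 probe sets), 5 higher and 2 lower, against 28% of all probe sets (12.1% higher and 15.9% lower). The corresponding count in irradiated discs was 6 of 51, 11.8%, with 5 higher and 1 lower, against 23.2% of all probe sets (10.2% higher and 13% lower). The 6 genes called in irradiated discs were among the 7 called in untreated discs with the same sign, and the comparisons share no array. Both use 1 estimate of spread per probe set, so they are not independent, and the overlap over all probe sets was not counted. That is 100% of the irradiated and 85.7% of the untreated calls. The other one was dpr15, which is at the floor.

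Dim genes were called less often in these data as a whole, so members were also set beside genes of like reading. Among genes with a mean from 4.6 to 7, 3 of 35 members (8.57%) were called in untreated dDP against WT discs, and 24.5% of all 3220 genes. Above 7 it was 3 of 5 members (60%) and 49.5% of all 6644 genes. In irradiated discs the shares were 8.57% of members and 20.3% of genes in the lower band, and 60% and 41.2% in the upper one. The median difference over the 51 members was 0.00 in untreated and 0.02 in irradiated discs, beside -0.01 and -0.05 over all probe sets.

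dpr18 is an X-linked member of the dpr family. dpr18 read 6.56, 6.64 and 7.16 in irradiated and 7.02, 6.56 and 6.14 in untreated dDP discs. It read 5.19, 5.07 and 4.93 in irradiated and 4.92, 5.13 and 5.12 in untreated de2f1 discs, and 4.74 and 4.80 in irradiated and 5.54, 4.80 and 4.72 in untreated WT discs. All 6 dDP arrays lay above all 11 others, of which the highest was untreated WT array 1. The difference from WT had an adjusted p of 1.62e-04 in untreated and 5.43e-05 in irradiated discs (limma, n = 3 against 3 and 3 against 2). De2f1 discs differed from WT by 0.04 (95% interval -0.46 to 0.53, adjusted p = 0.965) when untreated and by 0.29 (-0.27 to 0.85, adjusted p = 0.621) when irradiated. In untreated discs dDP exceeded de2f1 by 1.51 ± 0.23 (adjusted p = 2.94e-04). In RefSeq (Release 6 plus ISO1 MT) no other gene overlaps dpr18. The call held under every alternative processing tried, with differences from WT of 1.32 to 1.99 in untreated and 1.69 to 2.13 in irradiated discs.

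dpr19 was the only member called in both mutants on its chosen probe set. dpr19 read 7.94, 7.72 and 8.21 in irradiated and 7.998, 8.32 and 8.22 in untreated dDP discs. It read 8.20, 8.36 and 8.32 in irradiated and 8.83, 8.62 and 8.86 in untreated de2f1 discs, and 7.22 and 6.94 in irradiated and 7.61, 7.04 and 6.98 in untreated WT discs. The 12 mutant arrays all lay above the 5 WT arrays, and the 3 untreated de2f1 arrays were the highest. Untreated discs gave 0.97 ± 0.16 for dDP (adjusted p = 3.68e-04) and 1.56 ± 0.16 for de2f1 (adjusted p = 1.9e-05) relative to WT. Irradiated discs gave 0.88 ± 0.18 for dDP (adjusted p = 0.00244) and 1.21 ± 0.18 for de2f1 (adjusted p = 5.48e-04). Within untreated discs dDP was lower than de2f1 (-0.59 ± 0.16, adjusted p = 0.0155), with no overlap between their arrays. That last difference missed the threshold without untreated dDP array 1 (-0.50, adjusted p = 0.0527), without untreated de2f1 array 1 (-0.56, 0.0571) or without untreated de2f1 array 3 (-0.55, 0.0543). No other RefSeq gene overlaps dpr19.

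**Figure D2:**
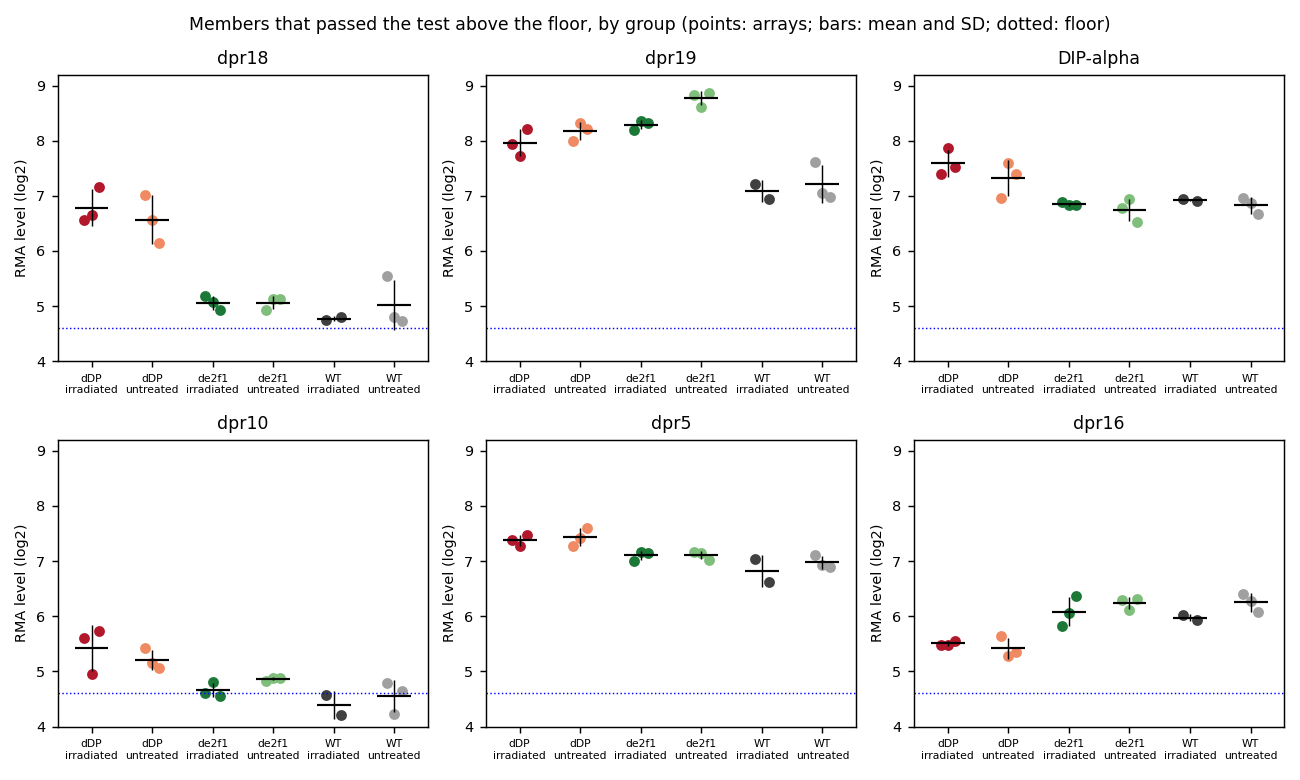
Points are log2 RMA readings of single arrays, with the mean and SD of each group, for the 6 members above the floor that were called in at least 1 comparison, and the dotted line is the floor of 4.6. In dpr18 the 6 dDP arrays lie at 6.14 to 7.16, above the 11 others, and in dpr19 both mutants lie above WT.

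DIP-alpha is a DIP found on subsets of motor and optic lobe neurons, where its ligands are Dpr6 and Dpr10. DIP-alpha read 7.39, 7.86 and 7.52 in irradiated and 6.96, 7.60 and 7.39 in untreated dDP discs. It read 6.88, 6.83 and 6.84 in irradiated and 6.78, 6.93 and 6.53 in untreated de2f1 discs, and 6.94 and 6.91 in irradiated and 6.96, 6.87 and 6.66 in untreated WT discs. The irradiated dDP arrays were above all de2f1 and WT arrays. Among the untreated arrays dDP array 1 and WT array 1 were level at 6.96 to 2 decimals, so those groups only just failed to overlap. DIP-alpha was higher in dDP than in WT discs by 0.49 ± 0.15 untreated (adjusted p = 0.0281) and 0.67 ± 0.17 irradiated (adjusted p = 0.0113), and higher than in untreated de2f1 discs by 0.57 ± 0.15 (adjusted p = 0.0148).

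The untreated difference was smaller when the arrays with the larger actin difference were set aside. Without untreated dDP arrays 2 and 3 it was 0.14 (adjusted p = 0.663), which leaves 1 untreated dDP array, the one high in fat body genes, and takes the spread from the other groups. With all arrays, a model that included each array's actin difference gave 0.20 (adjusted p = 0.352). Actin differences were 1.90, 3.05 and 3.26 on untreated dDP arrays 1, 2 and 3, against 1.69 to 2.28 elsewhere. Here and below, the actin term thus rests largely on those dDP arrays. It cannot tell the actin difference from other differences among them. The untreated difference of DIP-alpha missed the threshold in 9 of 19 alternatives, also without untreated dDP array 2 (0.35, adjusted p = 0.131) or 3 (0.45, 0.0859) and without untreated WT array 2 (0.51, 0.0583) or 3 (0.41, 0.109). In irradiated discs, where no array had such an actin difference, it was 0.68 (adjusted p = 0.0616) without WT array 1 and 0.65 (0.0728) without WT array 3, each of which leaves 1 WT array. Against untreated de2f1 discs the call was lost in 7 of 19 alternatives, among them without untreated dDP array 2 (0.43, 0.0725) or 3 (0.54, 0.0531) and without untreated de2f1 array 3 (0.46, 0.0685). Without both untreated dDP arrays 2 and 3, which leaves 1 dDP array, that difference was 0.22. RefSeq places 5 other genes over the DIP-alpha locus, among them ppk8, and the sources used here do not say where the probes lie.

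Of the ligands of DIP-alpha, dpr10 was called and dpr6 was not. dpr10 read 5.60, 4.96 and 5.73 in irradiated and 5.42, 5.15 and 5.06 in untreated dDP discs. It read 4.61, 4.81 and 4.56 in irradiated and 4.83, 4.88 and 4.88 in untreated de2f1 discs, and 4.57 and 4.21 in irradiated and 4.79, 4.24 and 4.65 in untreated WT discs. Every dDP array exceeded every other array, and both WT means were below the floor, so the fold change of dpr10 is poorly fixed. It was higher in dDP than in WT discs by 0.65 ± 0.19 untreated (adjusted p = 0.0163) and 1.04 ± 0.21 irradiated (adjusted p = 0.00208). The untreated call was lost without dDP array 1 (0.55, adjusted p = 0.0579) or WT array 2 (0.49, adjusted p = 0.0844), and the irradiated one was kept without any single array. Relative to untreated de2f1 discs dpr10 differed by 0.34 (-0.06 to 0.74, adjusted p = 0.229). RefSeq has CG8072 and CG6628 overlapping dpr10. dpr6 read 5.57, 5.82 and 5.75 in irradiated and 5.74, 5.96 and 6.07 in untreated dDP discs. It read 5.87, 6.02 and 5.88 in irradiated and 5.78, 5.90 and 5.71 in untreated de2f1 discs, and 5.75 and 5.88 in irradiated and 5.80, 5.76 and 5.75 in untreated WT discs. These groups overlapped, with differences of dDP from WT of 0.15 (-0.03 to 0.34, adjusted p = 0.229) untreated and -0.10 (-0.31 to 0.11, adjusted p = 0.527) irradiated. With untreated dDP array 1 and irradiated dDP array 2 left out, the untreated difference of dpr6 was 0.25 (adjusted p = 0.0276).

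dpr5 showed a smaller rise. dpr5 read 7.39, 7.27 and 7.47 in irradiated and 7.28, 7.43 and 7.61 in untreated dDP discs. It read 7.01, 7.16 and 7.15 in irradiated and 7.16, 7.14 and 7.02 in untreated de2f1 discs, and 7.03 and 6.62 in irradiated and 7.11, 6.93 and 6.90 in untreated WT discs. All 6 dDP arrays lay above all 11 others. The difference from WT was 0.46 ± 0.11 in untreated (adjusted p = 0.00481) and 0.55 ± 0.12 in irradiated discs (adjusted p = 0.00358). It was 0.35 (adjusted p = 0.0844) without irradiated WT array 3, which leaves 1 WT array. In untreated discs it was 0.30 (adjusted p = 0.0716) once the actin term was included, and also 0.30 (adjusted p = 0.166) without dDP arrays 2 and 3, a fit in which 1 dDP array (7.28) remains and the spread comes from the other groups. Relative to untreated de2f1 discs it was 0.33 ± 0.11 (adjusted p = 0.0389), a call lost in 12 of 19 alternatives, including without untreated dDP array 2 (0.34, 0.0807) or 3 (0.25, 0.16) and without untreated de2f1 array 1 (0.36, 0.0678), 2 (0.35, 0.0702) or 3 (0.29, 0.124).

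Above the floor, dpr16 was the only member whose chosen probe set was called lower in dDP than in WT discs. DIP-theta missed the threshold untreated (-0.42, adjusted p = 0.0608), with dDP arrays at 5.22 to 5.48 and WT arrays at 5.60 to 6.04. It passed with quantile normalization (-0.48, 0.03), without the dimmest probe sets (-0.42, 0.044) and with the actin term (-0.60, 0.0291). Irradiated means of DIP-theta were 5.48 in dDP and 5.55 in WT discs. Dpr16, with Dpr11, Dpr15 and Dpr17, is a ligand of DIP-gamma. dpr16 read 5.47, 5.49 and 5.56 in irradiated and 5.64, 5.27 and 5.35 in untreated dDP discs. It read 5.83, 6.06 and 6.36 in irradiated and 6.29, 6.11 and 6.32 in untreated de2f1 discs, and 6.02 and 5.93 in irradiated and 6.41, 6.28 and 6.07 in untreated WT discs. The 6 dDP arrays were the lowest of the 17. The dDP minus WT difference was -0.83 ± 0.13 untreated (adjusted p = 1.84e-04) and -0.47 ± 0.14 irradiated (adjusted p = 0.0277), and the untreated dDP minus de2f1 difference was -0.82 ± 0.13 (adjusted p = 3.21e-04). The irradiated call was lost without WT array 1 (-0.43, adjusted p = 0.158) or 3 (-0.51, 0.0862) and without dDP array 1 (-0.45, 0.0667) or 2 (-0.46, 0.0652). A second dpr16 probe set, which averaged 3.91 and so was below the floor, gave 0.02 in untreated and -0.03 in irradiated discs (adjusted p = 0.899 and 0.877). CG12590, CR46401 and cno overlap dpr16 in RefSeq.

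No other gene of that binding group was called above the floor. DIP-gamma read 6.05, 6.19 and 6.06 in irradiated dDP, 6.02, 6.31 and 6.42 in untreated dDP, 6.19, 6.16 and 6.41 in irradiated de2f1, 6.07, 6.43 and 6.24 in untreated de2f1, 5.95 and 6.20 in irradiated WT and 6.37, 6.19 and 6.20 in untreated WT discs. These groups overlapped in each of the 8 comparisons of 1 group with another, and the difference of dDP from WT was 0.00 (-0.25 to 0.24) untreated and 0.02 (-0.25 to 0.30) irradiated. dpr17 differed by 0.05 (-0.25 to 0.36) and 0.13 (-0.21 to 0.47). dpr11 read 4.39, 4.20 and 4.30 in irradiated dDP, 4.33, 4.09 and 4.07 in untreated dDP, 4.28, 4.32 and 4.42 in irradiated de2f1, 4.39, 4.32 and 4.21 in untreated de2f1, 4.32 and 4.70 in irradiated WT and 4.38, 4.25 and 4.41 in untreated WT discs. It stayed near the floor, at -0.18 (adjusted p = 0.202) in untreated and -0.21 (adjusted p = 0.197) in irradiated dDP relative to WT discs. dpr15, with all group means from 3.87 to 4.23, was called at -0.31 ± 0.08 (adjusted p = 0.00696) in untreated dDP discs and not in irradiated ones (-0.11, adjusted p = 0.44), and readings this low have little room to fall.

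**Figure D3:**
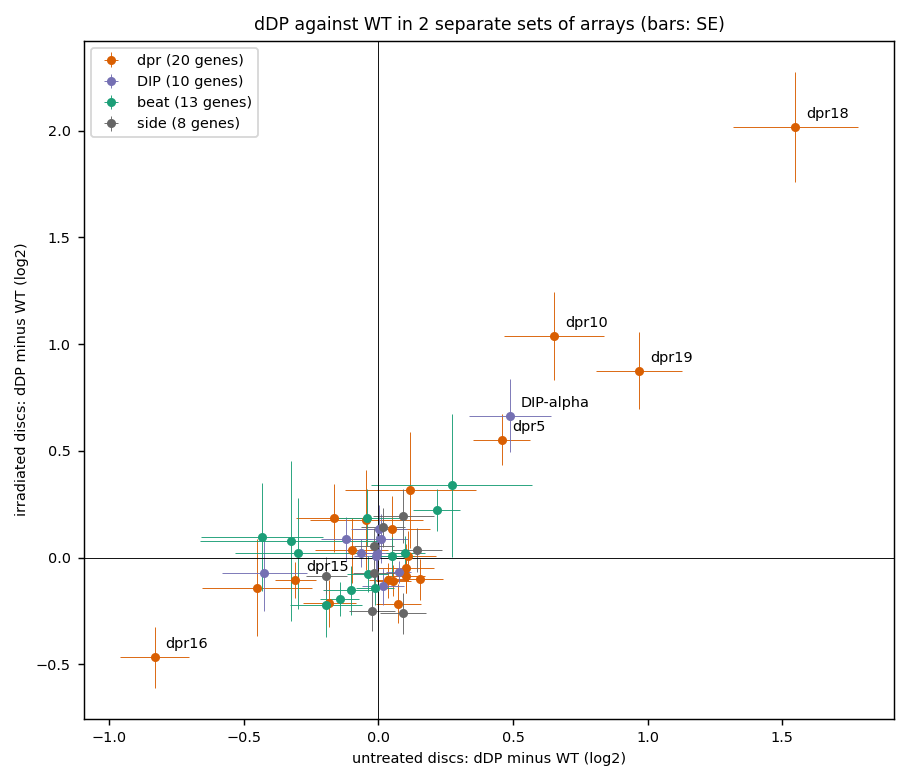
Each point is a member, with the dDP minus WT difference (log2, bars SE) in untreated discs on the horizontal axis and in irradiated discs on the vertical axis, from arrays that the axes do not share. The 5 called higher genes lie at the upper right, led by dpr18 at 1.55 and 2.02, dpr16 lies at the lower left at -0.83 and -0.47, and the remaining members cluster about 0.

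Genes of other cell types were also called between the same discs. Over all probe sets 28% were called in untreated and 23.2% in irradiated dDP against WT discs. Relative to WT, hemocyte genes were lower in dDP discs for 8 of 10 genes untreated, with 1 higher, and for 7 of 10 irradiated. Their array means were 7.27 to 7.72 in irradiated and 7.71 to 8.01 in untreated dDP discs, against 8.68 to 8.83 in irradiated and 8.84 to 9.30 in untreated WT discs. Of the 18 measured neuron and synapse genes 1 was higher in untreated and 2 in irradiated dDP discs, none was lower, and their array means were 7.35 to 7.48 in irradiated and 6.95 to 7.29 in untreated dDP discs, against 6.91 to 7.05 in irradiated and 6.70 to 7.47 in untreated WT discs. Glial genes were lower for 3 of 10 in untreated discs, and 1 higher and 2 lower in irradiated discs, with repo, the glial homeobox gene, at 7.69 to 7.89 in irradiated and 7.86 to 7.94 in untreated dDP discs and at 8.95 to 9.45 in WT discs. The glial list includes vkg, a collagen IV gene that is not specific to glia. The part of hemocytes and glia in the member differences was not tested.

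Photoreceptor differentiation genes, of which 16 were measured, were called in both directions between dDP and WT discs. Over all probe sets 28% were called untreated and 23.2% irradiated, and among genes with a mean above 7 it was 49.5% and 41.2%. In untreated discs 3 were higher, namely chp (chaoptin, a photoreceptor surface protein, 1.10, adjusted p = 2.98e-04), boss (the R8 ligand of Sevenless, 0.65, 0.0014) and phyl (0.40, 0.00147), and 2 were lower, sens (-0.58, 9.62e-05) and ato (-0.45, 4.97e-04), transcription factors of the R8 photoreceptor. In irradiated discs chp (1.04) and phyl (0.42) were higher and sens (-0.38) and ato (-0.44) lower. The array means of the list were 9.79 to 10.03 in irradiated and 9.96 to 9.98 in untreated dDP discs, against 9.74 to 9.84 in irradiated and 9.82 to 9.97 in untreated WT discs. Fat body genes, of which 4 were measured, averaged 9.19 to 11.34 in irradiated and 7.39 to 13.31 in untreated dDP discs, against 6.73 to 7.77 in irradiated and 6.67 to 6.75 in untreated WT discs, with none called. Of 5 tracheal genes btl was lower (-1.26 untreated and -0.998 irradiated), with 1 higher untreated and 2 irradiated, and of 6 muscle genes Mlc2 was higher (0.87 and 1.09). None of these lists had a gene below the floor in any group, and their part in the member differences was not tested.

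Models with a tissue mean as a term were run for the salivary and neuron lists. With the salivary gland mean in the model, 4 members (dpr15, dpr16, dpr18 and dpr19) were called in untreated dDP against WT discs, where 6 of 8 salivary genes were lower. That mean was 5.72 to 6.04 in untreated dDP and 10.08 to 12.61 in untreated WT discs. The term thus largely follows the groups, and its fit cannot tell salivary tissue from genotype in that comparison. With the neuron and synapse mean, a term chosen after seeing the data, 11 members were called there, the 7 named above and DIP-theta, beat-VII, beat-Ia and dpr14. In irradiated discs that term gave 9 called members: DIP-alpha was no longer called (0.53, adjusted p = 0.0715), and beat-VII (0.32, adjusted p = 0.0494), dpr14 (-0.52, 0.0419, against -0.14 without the term), side-III (-0.33, 0.0367) and side-VI (0.26, 0.0413) were.

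With E2f1 deleted in the posterior of the disc, 1 member differed from WT on its chosen probe set. dpr19 was the only one called in de2f1 against WT discs, untreated and irradiated, which is 1.96% of members, beside 8.99% of all probe sets (3.89% higher and 5.1% lower) untreated and 8.63% (3.68% higher and 4.94% lower) irradiated. Another member at an unadjusted p under 0.05 in untreated discs was dpr15 (-0.21, adjusted p = 0.123), and in irradiated discs there were 3, dpr15 (-0.26, adjusted p = 0.0795), dpr5 (0.28, adjusted p = 0.198) and beat-VII (0.24, adjusted p = 0.17). In each of these comparisons 20.4% of all probe sets were at that level. The 50 other members lay between -0.26 and 0.31 in untreated and between -0.47 and 0.29 in irradiated discs. The median over all members was 0.02 and 0.01, beside 0.00 and 0.00 over all probe sets. Without irradiated WT array 1, a second member was called in irradiated discs. Of the 10 hemocyte genes 2 were higher in untreated and 1 in irradiated de2f1 than in WT discs, and repo read 8.21 to 8.51 in irradiated and 8.40 to 8.54 in untreated de2f1 discs. Their part in the dpr19 difference was not tested.

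Set directly against untreated de2f1 discs, untreated dDP discs had 5 members called on their chosen probe sets. That is 9.8%, against 22.3% of all probe sets (10.4% higher and 11.9% lower). dpr18, DIP-alpha and dpr5 were higher and dpr16 and dpr19 lower, with the values given above for each gene. The count was 2 or 3 when any of untreated dDP arrays 2 and 3 or untreated de2f1 arrays 1 and 3 was left out. dpr18 and dpr16 were called under each of those settings. Hemocyte genes were lower in dDP for 8 of 10 and genes of the glial list for 5 of 10, among them the collagen gene vkg (-1.06). The part of these lists in the differences was not tested. The comparison of irradiated dDP with irradiated de2f1 discs was not tested here.

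Irradiation changed no member past the threshold within any genotype on its chosen probe set. The count was 0 of 51 in dDP, in de2f1 and in WT discs 4 h after 40 Gy (limma), beside 8.84% of all probe sets in dDP (4.45% higher and 4.38% lower), 2.3% in de2f1 (1.37% higher and 0.927% lower) and 4.51% in WT discs (2.59% higher and 1.92% lower). At an unadjusted p under 0.05 there were 5 members in dDP discs, 1 in de2f1 discs and 1 in WT discs, beside 23.7%, 11.6% and 14.3% of all probe sets. The 5 were dpr2 (-0.25, adjusted p = 0.0502), dpr3 (-0.23, 0.109), dpr6 (-0.21, 0.157), side-III (-0.21, 0.149) and side-V (-0.21, 0.152), all lower after irradiation. In de2f1 discs it was dpr19 (-0.48 ± 0.16, adjusted p = 0.207), whose 3 irradiated arrays at 8.20 to 8.36 lay below the untreated ones at 8.62 to 8.86. The count of 0 in dDP discs was 5 without untreated dDP array 1 and 1 without irradiated dDP array 1. The WT member was dpr20 (-0.36, adjusted p = 0.314).

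The intervals bound how large an irradiation difference these arrays allow. The 95% interval of the irradiation difference stayed within 2-fold either way for 50 members in dDP, 50 in de2f1 and 49 in WT discs. Wider ones were dpr9 in dDP discs (0.49, -0.04 to 1.01), beat-IIa in de2f1 discs (-0.36, -1.09 to 0.36), and beat-IIa (-0.42, -1.23 to 0.39) and beat-Ia (-0.52, -1.06 to 0.03) in WT discs. No member's irradiation effect differed between a mutant and WT at the threshold, beside 0.202% of all probe sets for dDP (0.112% higher and 0.0906% lower) and 0.0533% for de2f1 (all lower). An unadjusted p under 0.05 was found for 2 and 1 members, beside 9.47% and 4.1% of all probe sets.

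**Figure D4:**
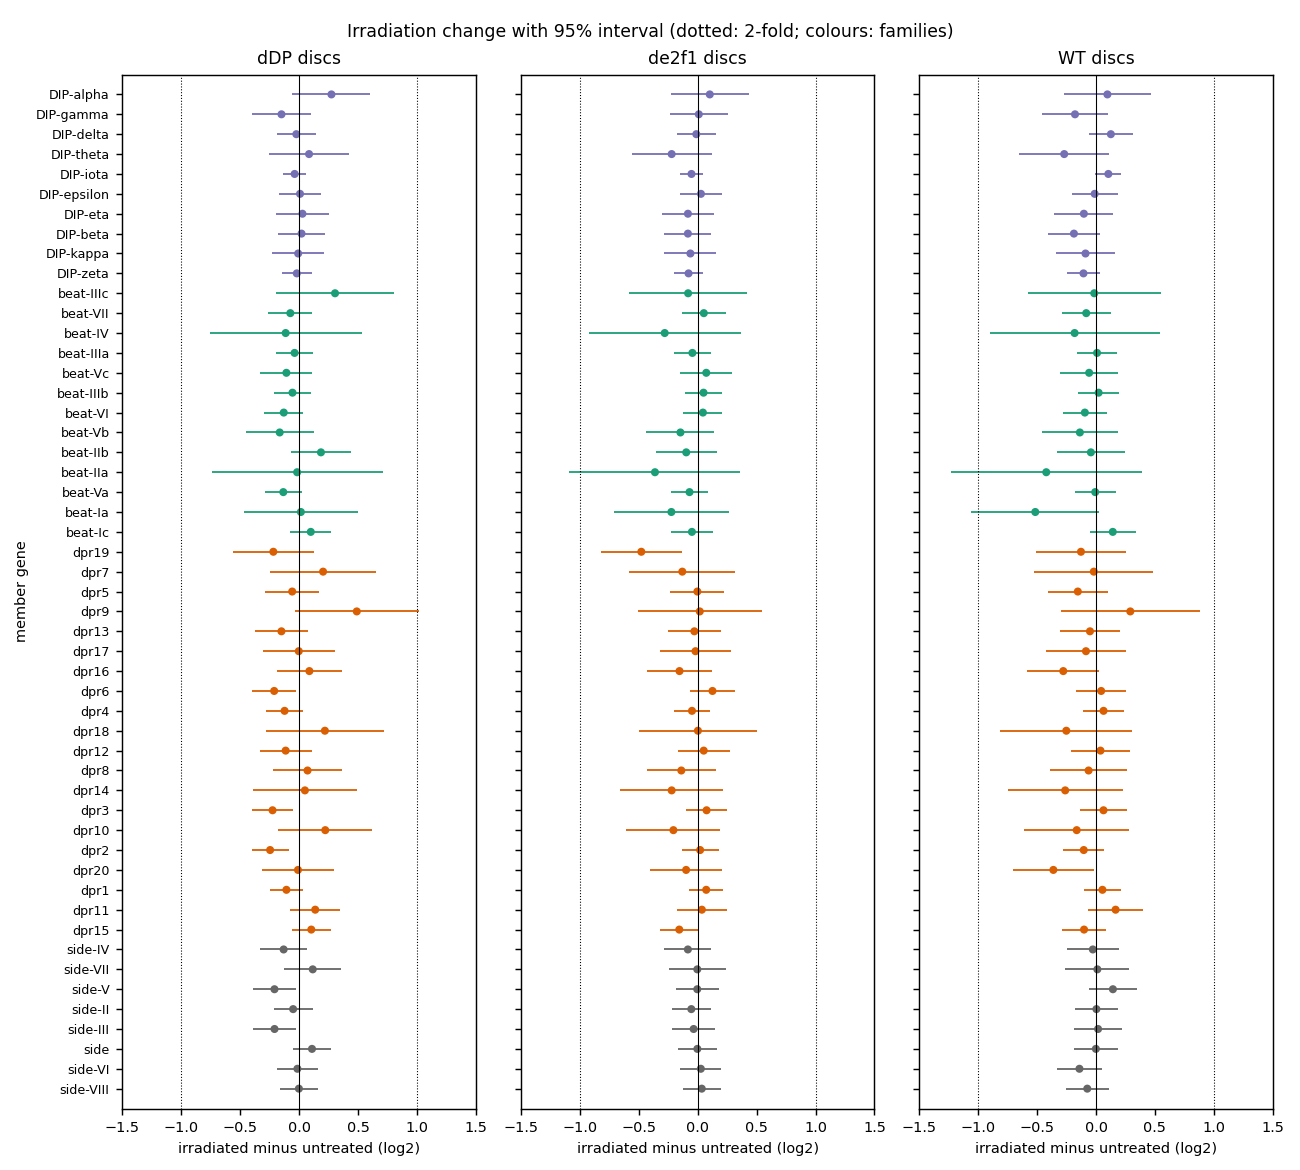
Points are the irradiated minus untreated difference (log2) of each of the 51 members within dDP, de2f1 and WT discs, bars are 95% intervals and dotted lines mark 2-fold. Most intervals cross 0, and none of the differences passed the test.

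Among the dpr genes that were not called, dpr7, on chromosome 4, had the highest mean after dpr19. dpr7 read 7.94, 7.78 and 8.13 in irradiated and 7.76, 7.74 and 7.75 in untreated dDP discs. It read 7.67, 7.89 and 7.72 in irradiated and 7.77, 8.39 and 7.51 in untreated de2f1 discs, and 7.73 and 7.82 in irradiated and 8.28, 7.59 and 7.51 in untreated WT discs. The 2 highest arrays were untreated de2f1 array 2 and untreated WT array 1, and dDP differed from WT by -0.04 (-0.50 to 0.41) untreated and 0.18 (-0.33 to 0.68) irradiated.

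The partners DIP-delta and dpr12, which bind each other, were not called in any comparison. DIP-delta read 5.95, 5.94 and 6.04 in irradiated dDP, 6.02, 6.03 and 5.95 in untreated dDP, 6.15, 5.90 and 6.16 in irradiated de2f1, 6.10, 6.16 and 5.98 in untreated de2f1, 6.03 and 6.19 in irradiated WT and 5.92, 5.95 and 6.08 in untreated WT discs. dpr12 read 5.61, 5.45 and 5.34 in irradiated dDP, 5.47, 5.74 and 5.52 in untreated dDP, 5.55, 5.87 and 5.71 in irradiated de2f1, 5.73, 5.66 and 5.59 in untreated de2f1, 5.43 and 5.60 in irradiated WT and 5.55, 5.32 and 5.56 in untreated WT discs. Groups overlapped in every comparison of DIP-delta, and in dpr12 only untreated de2f1 and WT discs did not (0.18, adjusted p = 0.367). The differences of dDP from WT were 0.02 (-0.15 to 0.18) untreated and -0.13 (-0.32 to 0.05) irradiated for DIP-delta and 0.10 (-0.12 to 0.32) and -0.05 (-0.30 to 0.20) for dpr12.

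No beat gene was called on its chosen probe set. beat-IIIc had the highest reading of all 51 members. beat-IIIc read 9.34, 9.43 and 9.60 in irradiated and 9.52, 9.30 and 8.64 in untreated dDP discs. It read 9.31, 9.15 and 9.61 in irradiated and 9.69, 9.73 and 8.88 in untreated de2f1 discs, and 9.44 and 9.43 in irradiated and 9.38, 9.68 and 9.30 in untreated WT discs. Its lowest arrays were untreated dDP array 3 and untreated de2f1 array 3, and the groups overlapped (dDP against WT -0.30, -0.80 to 0.20, untreated and 0.02, -0.54 to 0.58, irradiated). beat-VII read 5.53, 5.57 and 5.58 in irradiated dDP, 5.49, 5.67 and 5.74 in untreated dDP, 5.64, 5.57 and 5.52 in irradiated de2f1, 5.56, 5.38 and 5.63 in untreated de2f1, 5.37 and 5.30 in irradiated WT and 5.35, 5.60 and 5.30 in untreated WT discs. Irradiated dDP and de2f1 arrays all lay above irradiated WT arrays for beat-VII. It came nearest to the threshold among the beat genes in untreated dDP against WT discs (0.22 ± 0.09, adjusted p = 0.0828), and the 13 genes ran from -0.43 to 0.27 there and from -0.22 to 0.34 in irradiated discs. With array weights, beat-VII passed (0.25, adjusted p = 0.0291).

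No side gene was called on its chosen probe set either. side-IV read 6.51, 6.34 and 6.37 in irradiated dDP, 6.69, 6.53 and 6.40 in untreated dDP, 6.34, 6.24 and 6.56 in irradiated de2f1, 6.41, 6.39 and 6.59 in untreated de2f1, 6.30 and 6.43 in irradiated WT and 6.34, 6.40 and 6.44 in untreated WT discs. side-VII read 6.63, 6.38 and 6.18 in irradiated dDP, 6.28, 6.27 and 6.29 in untreated dDP, 6.18, 6.40 and 6.33 in irradiated de2f1, 6.27, 6.50 and 6.14 in untreated de2f1, 6.11 and 6.29 in irradiated WT and 6.31, 6.18 and 6.08 in untreated WT discs. The groups overlapped in both genes. Over the 8 side genes the difference of dDP from WT lay between -0.19 and 0.14 untreated and between -0.26 and 0.20 irradiated, and the outermost were side (-0.19, adjusted p = 0.0782, untreated) and side-V (-0.26, adjusted p = 0.0661, irradiated). side-V, on the same comparison, passed under 5 alternatives, with adjusted p of 0.0202 to 0.0456. With quantile normalization side passed untreated (-0.23, adjusted p = 0.0279).

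Known Beat and Side partners were read together. side read 5.10, 5.14 and 5.17 in irradiated dDP, 5.04, 5.10 and 4.95 in untreated dDP, 5.03, 5.04 and 5.32 in irradiated de2f1, 5.15, 5.10 and 5.15 in untreated de2f1, 5.16 and 5.28 in irradiated WT and 5.21, 5.13 and 5.32 in untreated WT discs. beat-Ia read 3.74, 3.85 and 3.86 in irradiated dDP, 3.77, 3.85 and 3.79 in untreated dDP, 3.96, 3.85 and 3.62 in irradiated de2f1, 3.76, 4.42 and 3.93 in untreated de2f1, 3.66 and 3.78 in irradiated WT and 4.91, 4.00 and 3.80 in untreated WT discs. side was above the floor in every group, while its partner beat-Ia, the founding beaten path gene, exceeded the floor on 1 array, untreated WT array 1. side-IV, whose partners are beat-IIa and beat-IIb, was above the floor throughout. beat-IIa read 4.31, 4.23 and 4.24 in irradiated dDP, 4.23, 4.27 and 4.34 in untreated dDP, 4.22, 4.03 and 3.94 in irradiated de2f1, 4.11, 5.13 and 4.04 in untreated de2f1, 4.17 and 4.20 in irradiated WT and 5.60, 4.01 and 4.21 in untreated WT discs. beat-IIb read 4.49, 4.50 and 4.59 in irradiated dDP, 4.44, 4.26 and 4.33 in untreated dDP, 4.67, 4.31 and 4.32 in irradiated de2f1, 4.45, 4.38 and 4.77 in untreated de2f1, 4.23 and 4.45 in irradiated WT and 4.43, 4.52 and 4.20 in untreated WT discs. beat-IIa read above 5 on untreated WT array 1 and untreated de2f1 array 2 alone, and beat-IIb had every group mean below the floor.

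side-II read 5.79, 5.71 and 5.65 in irradiated dDP, 5.67, 5.79 and 5.84 in untreated dDP, 5.85, 5.67 and 5.96 in irradiated de2f1, 5.88, 5.92 and 5.85 in untreated de2f1, 5.71 and 5.86 in irradiated WT and 5.70, 5.78 and 5.87 in untreated WT discs. beat-VI read 4.78, 4.67 and 4.71 in irradiated dDP, 4.67, 4.97 and 4.92 in untreated dDP, 4.87, 4.83 and 4.78 in irradiated de2f1, 4.77, 4.79 and 4.79 in untreated de2f1, 4.79 and 4.80 in irradiated WT and 4.89, 5.03 and 4.75 in untreated WT discs. Untreated dDP arrays lay below untreated de2f1 arrays in side-II and irradiated dDP arrays below irradiated WT arrays in beat-VI, and the other groups compared overlapped. side-VI read 4.826, 4.666 and 4.641 in irradiated dDP, 4.603, 4.749 and 4.829 in untreated dDP, 4.681, 4.794 and 4.582 in irradiated de2f1, 4.678, 4.618 and 4.681 in untreated de2f1, 4.648 and 4.489 in irradiated WT and 4.603, 4.693 and 4.832 in untreated WT discs. Its partners of the beat-V cluster were also close to the floor. beat-Va read 4.15, 4.03 and 4.09 in irradiated dDP, 4.19, 4.28 and 4.21 in untreated dDP, 4.15, 4.12 and 4.14 in irradiated de2f1, 4.24, 4.14 and 4.23 in untreated de2f1, 4.15 and 4.31 in irradiated WT and 4.37, 4.06 and 4.29 in untreated WT discs. beat-Vb read 4.30, 4.38 and 4.28 in irradiated dDP, 4.27, 4.41 and 4.78 in untreated dDP, 4.55, 4.43 and 4.50 in irradiated de2f1, 4.53, 4.94 and 4.46 in untreated de2f1, 4.55 and 4.54 in irradiated WT and 4.87, 4.62 and 4.56 in untreated WT discs. beat-Vc read 4.79, 4.83 and 4.90 in irradiated dDP, 4.80, 5.08 and 4.97 in untreated dDP, 5.04, 4.87 and 5.12 in irradiated de2f1, 4.89, 5.02 and 4.90 in untreated de2f1, 5.21 and 4.78 in irradiated WT and 5.07, 4.98 and 5.10 in untreated WT discs. Of these 3, beat-Vc was above the floor in all 6 groups and beat-Va in none. None of the partner pairs of the beat and side families had a member called on its chosen probe set in any of the 10 comparisons.

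Other probe sets of the same genes added calls, mostly for side-II. Across 23 members there were 42 further probe sets, 22 of them with a mean below the floor, and 7 were called in at least 1 comparison, 12 calls in all, of which 8 were of side-II. In dDP against WT discs the chosen side-II probe set gave -0.02 untreated and -0.07 irradiated. A second, averaging 5.54, gave -0.16 (adjusted p = 0.232) and -0.46 ± 0.10 (adjusted p = 0.00345), and another, averaging 5.25, gave -0.27 ± 0.07 (adjusted p = 0.00528) and -0.18 (adjusted p = 0.0962). Of the 3 side-II probe sets with means below the floor, 1 was called in untreated discs (-0.18, adjusted p = 0.0414) and another in irradiated discs (-0.37, adjusted p = 0.0168). All 6 side-II probe sets were negative in both comparisons, from -0.27 to -0.02 untreated and from -0.46 to -0.07 irradiated, and they differed in size and in which passed the test. The sources used here do not say which transcripts each one reads. In de2f1 against WT discs the side-II probe set averaging 5.25 was lower untreated (-0.23, adjusted p = 0.0452) and irradiated (-0.27, adjusted p = 0.0336), and 1 below the floor was lower irradiated (-0.37, adjusted p = 0.0402), while the chosen probe set gave 0.10 and 0.04. The second side-VI probe set, averaging 4.61, was higher in irradiated de2f1 than in WT discs (0.28, adjusted p = 0.0251). The second DIP-epsilon probe set, at 4.70, was lower in untreated dDP than in WT discs (-0.22 ± 0.06, adjusted p = 0.0139) and than in de2f1 discs (-0.31 ± 0.06, adjusted p = 0.00191). The third DIP-beta probe set, averaging 4.04 and so below the floor, was lower after irradiation in dDP discs (-0.24, adjusted p = 0.0255).

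A further pattern, noticed after the values were seen, followed single arrays and not groups. Untreated WT array 1 and untreated de2f1 array 2 both lay above the other 15 arrays for 8 of the 51 members, 15.7%, and for 251 of 11982 genes, 2.09%. The 8 were DIP-theta, beat-Ia, beat-IIa, beat-IV, beat-Vb, dpr7, dpr8 and dpr14. beat-IIa read 5.60 and 5.13 on these arrays, against 3.94 to 4.34 on the others, and beat-IV read 5.88 and 6.24, against 4.89 to 5.56. These arrays also had high means of the neuron and synapse genes (7.47 and 7.50, against 6.70 to 7.48) and the highest means of the glial genes (9.84 and 9.53, against 8.80 to 9.29). Whether other tissue in these samples had a part was not tested. With both arrays left out, beat-IV was higher in untreated dDP than in WT discs (0.60, adjusted p = 0.00805), against 0.27 (adjusted p = 0.573) with them, and the 7 genes named above were still called.

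**Figure D5:**
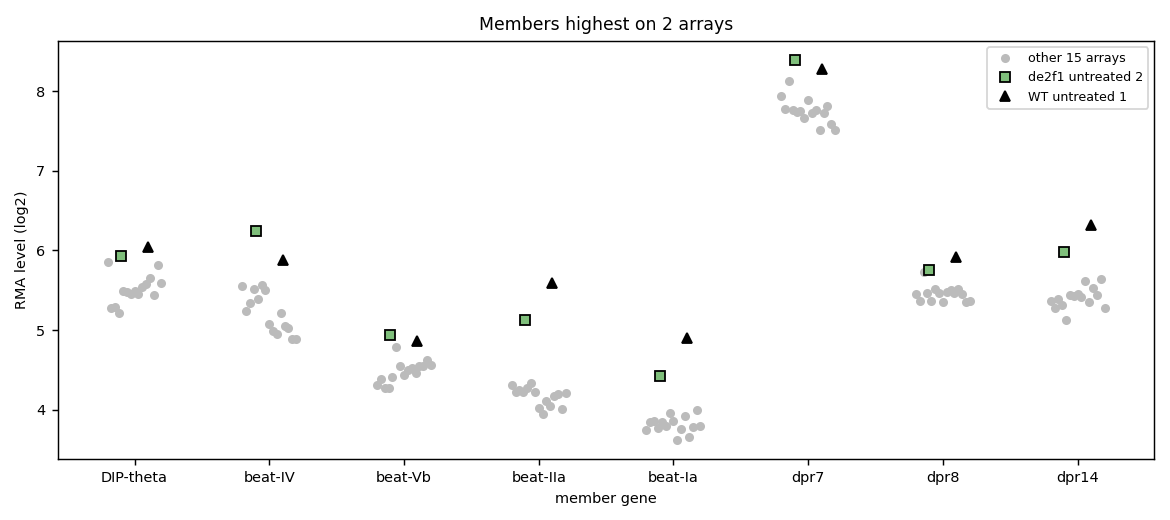
Log2 RMA readings on all 17 arrays of the 8 members for which untreated de2f1 array 2 (square) and untreated WT array 1 (triangle) were both above the other 15 arrays (grey points). The gap is widest in beat-IIa, at 5.13 and 5.60 against at most 4.34.

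Other genes of neuronal wiring were called in both directions in dDP discs. The list held 58 guidance and adhesion genes outside the 4 families, of which 49 were measured. In untreated dDP against WT discs 5 of these were higher and 14 lower, beside 12.1% and 15.9% of all probe sets. Among all genes with a mean above 7, 49.5% were called. The median of the list was -0.17, beside -0.01 over all probe sets. With the actin term the list counts were 5 and 9 (median -0.05), with 11 of the 19 genes still called. Over all probe sets that term took the calls from 5261 to 4847. Without untreated dDP arrays 2 and 3, which leaves 1 array, the list median was 0.01. Those with the largest changes were Con (connectin, a homophilic adhesion protein, -0.97, adjusted p = 0.0204), Ephrin (the ligand of Eph, -0.93, adjusted p = 4.86e-04), Sema1a (a semaphorin, -0.90, adjusted p = 0.0419) and Ptp69D (a receptor phosphatase of photoreceptor axons, -0.89, adjusted p = 6.37e-05). Sema1a read 8.38, 7.85 and 6.99 in untreated dDP discs, against 8.83, 8.75 and 8.35 in untreated WT discs, and was not called with the actin term (-0.56, adjusted p = 0.309), whereas Con (-1.14, 0.0335), Ephrin (-0.54, 3.84e-04) and Ptp69D (-0.87, 8.95e-04) were. Irradiated dDP discs had 6 higher and 7 lower than WT, with a median of -0.02, beside 10.2% higher and 13% lower over all probe sets. In de2f1 against WT discs Dscam3 was higher (0.79, adjusted p = 0.00443) and sns (-0.77, 0.00246) and Nrx-1 (-0.73, 0.00311) lower when untreated, and Dscam3 (0.72, 0.0174) was higher and Nrx-1 (-0.66, 0.0143) lower when irradiated. The shares of all probe sets called there were 8.99% and 8.63%.

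Some genes of this list were called after irradiation. They were babos in WT (0.64, adjusted p = 3.21e-05) and de2f1 discs (0.61, adjusted p = 3.45e-05), and in dDP discs Ama (-0.45, adjusted p = 0.00572), Ptp10D (0.42, 0.0339), babos (0.38, 0.00111) and Dscam1 (0.28, 0.0485). The shares of all probe sets called were 4.51% in WT, 2.3% in de2f1 and 8.84% in dDP discs. Ptp10D read 9.02, 8.84 and 8.99 in irradiated dDP discs, against 8.86, 8.37 and 8.36 in untreated ones, so its low arrays were the 2 with the larger actin difference. With the actin term Ptp10D (0.18, adjusted p = 0.348), Ama (-0.32, 0.0717) and Dscam1 (0.15, 0.428) were not called and babos was (0.48, 2.19e-04). Untreated dDP against de2f1 discs gave 4 higher and 9 lower, beside 10.4% and 11.9% of all probe sets. With the actin term it was 3 and 4, and calls over all probe sets went from 4184 to 4048. Whether the list differed from the 4 families was not tested.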

How the data were processed

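Whole 3rd instar eye discs were profiled from 50 ng of total RNA per sample on 17 arrays. Per the submitters' processing notes RMA made the deposited values, which are log2 summaries of each probe set. No version of it is named in the labels. Array medians were 5.90 to 5.99 on the dDP arrays and 5.82 to 5.89 on the others, and the log2 values were used as deposited. RMA's quantile step gives the single probes of all arrays 1 distribution before they are summarized, which hides any change in total RNA. The number of arrays limits the precision.

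The 183 control probe sets were left out, leaving 18769. Probe sets were named from the platform annotation with symbols updated by RefSeq, and per gene the one with the highest mean was kept. The tests came from limma 3.58.1 (R 4.3.3), with 1 mean per group over the 17 arrays and an untrended prior of 2.56 degrees of freedom. The code was tested on simulated data. The 10 contrasts were each mutant against WT (untreated, irradiated), dDP against de2f1 (untreated), irradiated against untreated per genotype, and 2 differences of irradiation effects. Errors are SEs, calls are Benjamini-Hochberg adjusted p under 0.05 over all probe sets.

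Samples were grouped by their titles. Each array was read as 1 biological replicate, as titled. Replicate numbers were not taken to pair samples: over 40 pairs of same-numbered arrays, deviations from group means correlated from -0.40 to 0.46, above 0.1 in 7.

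Members and lists were chosen with earlier results of these data known. Every member could be named. Values on every array are given for called members above the floor, the 2 brightest per family and known partner pairs, and of the other wiring genes up to 4 called per contrast. dpr17, the members named by an unadjusted p and the further probe sets fall outside that rule and were chosen after their values were seen. The alternatives were a trended prior, array weights, quantile normalization, leaving out the dimmest 40%, 1 probe set per gene, contrast arrays only, a replicate block, the actin difference or salivary mean as a term, other probe sets, and arrays left out singly or together. A neuron mean as a term and leaving out untreated WT array 1 with untreated de2f1 array 2 were added after seeing the data, as were the actin term and the left-out dDP arrays for the other wiring genes. Python 3.11.15 with pandas 2.3.3 made the tables, and matplotlib 3.10.9 drew the figures.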

Additional observations from a re-analysis of the deposited data

How the results depend on the processing

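Of 117 counts of called members under other settings, leaving out single arrays aside, 103 stayed within 1.5 times the reported count. In untreated dDP against WT discs the salivary term gave 4 and the neuron term 11. In untreated dDP against de2f1 discs quantile normalization, contrast arrays only and leaving out untreated dDP arrays 2 and 3 gave 3 each. For irradiation, de2f1 discs gave 1 with array weights and 1 with contrast arrays only (dpr19 in both), and dDP discs gave 4 with array weights, 1 with 1 probe set per gene, 1 with the actin term and 4 without untreated dDP array 1 and irradiated dDP array 2. That last setting gave 1 (side-V) for the dDP difference of irradiation effects. In irradiated de2f1 against WT discs array weights and the actin term gave 2 each, dpr15 joining dpr19.

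Leaving out single arrays gave 6 to 9 for dDP against WT untreated, 4 to 7 irradiated, 2 to 5 for dDP against de2f1, 0 to 5 for dDP irradiation, 1 to 2 for irradiated and 1 to 1 for untreated de2f1 against WT, and 0 to 0 for the others. The replicate block gave 7, 5, 4, 1 and 1 for the first 3 comparisons and de2f1 against WT untreated and irradiated, and 0 for the others; dpr5 (dDP against de2f1) and dpr16 (irradiated dDP against WT) lost their calls. The reversed values were those of the second dpr16 probe set, 0.0185 against untreated WT and 0.0195 against untreated de2f1. Of 20 calls of a gene in a comparison, 8 held under every setting run. The other causes were not tested. Low signal limits the 9 members at the floor, whose differences cannot be sized.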
